A study of Homo sapiens with 21 samples.

Results

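In this series 10 genes of calcium handling by the endoplasmic reticulum (ER) were followed through a caffeine dose series in HepG2 cells. Their proteins move calcium across the ER membrane, sense the calcium load of the ER or, as Orai channels, lie in the plasma membrane. They were chosen by symbol for their known role, with earlier results of these data known. The set holds 3 IP3 receptors (ITPR1, ITPR2 and ITPR3), 2 calcium pumps (ATP2A2 and ATP2A3) and 2 calcium sensors (STIM1 and STIM2). It also holds 2 Orai channels (ORAI1 and ORAI3) and the leak channel TMCO1. All 10 were found among the 37637 features of the count table, each under 1 Ensembl identifier, and all 10 had enough reads to be tested among 17468 features. HepG2 is an established human liver cancer line. The cells stood in serum-free medium for 6 h with caffeine at 0, 0.01, 0.1, 1, 10, 100 or 1000 µM, and each of the 7 doses had 3 libraries, 21 in all. The 0 µM libraries are the untreated controls and went through the same 6 h. The line is the only genotype in the study.

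The ER is the main calcium store of the cell. IP3 receptors are its release channels, opened by the messenger inositol trisphosphate that phospholipase C makes, and they carry most hormone-driven calcium release in hepatocytes. SERCA pumps, encoded by the ATP2A genes, refill the store. When the store runs low, STIM proteins in the ER membrane cluster and open Orai channels in the plasma membrane, which is called store-operated entry, whereas TMCO1 has been described as a channel that opens when the store is overfull. Caffeine blocks adenosine receptors and phosphodiesterases, and on the calcium store it is known for opening ryanodine receptors and for inhibiting IP3 receptors.

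The promoters of ITPR1, STIM2 and ORAI3 are printed here because these were the 3 members that stood apart at 1000 µM from every other dose. Each stretch runs from 250 bases before to 50 bases after the RefSeq start (RefSeq, GRCh38.p14, plus strand, 5′ to 3′). Capitals mark GCGTG or its other strand CACGC, the core that the aryl hydrocarbon receptor recognises; this receptor drives CYP1A genes, whose enzymes metabolise caffeine.
ITPR1 (chr3:4493098-4493397): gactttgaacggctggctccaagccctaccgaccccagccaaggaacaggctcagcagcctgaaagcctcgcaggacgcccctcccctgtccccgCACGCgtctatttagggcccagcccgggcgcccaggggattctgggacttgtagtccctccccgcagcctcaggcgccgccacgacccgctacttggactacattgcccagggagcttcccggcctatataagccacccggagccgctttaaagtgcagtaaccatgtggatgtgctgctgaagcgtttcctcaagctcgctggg
STIM2 (chr4:26860591-26860890): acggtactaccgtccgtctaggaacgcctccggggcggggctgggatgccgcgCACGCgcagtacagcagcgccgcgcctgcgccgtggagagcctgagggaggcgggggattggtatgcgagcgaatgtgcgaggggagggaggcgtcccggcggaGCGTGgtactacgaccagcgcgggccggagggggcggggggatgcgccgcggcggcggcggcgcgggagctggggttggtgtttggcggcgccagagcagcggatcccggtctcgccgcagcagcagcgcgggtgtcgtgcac
ORAI3 (chr16:30948818-30949117): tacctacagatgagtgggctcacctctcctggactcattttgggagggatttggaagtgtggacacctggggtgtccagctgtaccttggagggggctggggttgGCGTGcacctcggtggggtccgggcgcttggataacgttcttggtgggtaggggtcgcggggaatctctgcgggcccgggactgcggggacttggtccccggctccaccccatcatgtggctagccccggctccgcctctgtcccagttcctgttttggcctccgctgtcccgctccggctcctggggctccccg
The match in ITPR1 began 155 bases before the start, the one in ORAI3 145 bases before it, and the 2 in STIM2 197 and 93 bases before it. RefSeq promoters were matched for 7 of the 10 members, with 12 windows between them, and 8 of the 12 windows (66.7%), in 5 genes, had at least 1 match. The same 5 letters occurred, on either strand, in 36.5% of all 35116 promoter windows of this length, and windows of 1 gene can overlap. The full cAMP response element TGACGTCA was in 1.85% of all windows and in no window of a member. The other genes with a match to the 5 letters were ATP2A2 and STIM1. G and C made up 63.3% of the printed stretch of ITPR1, 74.7% of STIM2 and 65.7% of ORAI3. The windows were not matched for this, so the shares are not a test of enrichment. These are matches of letters and no binding was measured.

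Library totals ran from 28043623 to 40827833 reads around a median of 32497612. Levels are counts per 1000000 reads (CPM), and a gene with no count could still hold 3 of them (0.0735 to 0.107 CPM, counting error only). Mitochondrial transcripts took 4.95% to 14.2% of the counts. All 8 liver markers sought were tested, and their summed level lay between 21100 and 26901 CPM in every library. Of 7 markers of immune, stromal and endothelial cells, PECAM1 was not analysed here, PTPRC, LUM, COL1A1 and COL1A2 had at most 6 counts in any library, and CD68 and the actin gene ACTA2 were tested. The summed level of the other-cell markers was 141 to 154 CPM at 0 µM and 89.2 to 118 CPM at 1000 µM, and its part in the results was not tested. In bulk RNA, a change within cells and a change in the mix of cells cannot be told apart.

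Divided by the length of the longest transcript, the untreated levels spanned a wide range. The housekeeping pump ATP2A2 stood highest at 43.3 ± 3.04 CPM per kilobase (SD, n = 3, as for all group values at single doses), and ITPR3 followed at 21.7 ± 2.52. TMCO1 at 14.8 ± 0.593 and STIM1 at 14.2 ± 0.195 CPM per kilobase did not differ beyond their spread, nor did ITPR2 at 7.83 ± 0.324 and ORAI3 at 7.74 ± 0.303. ORAI1 lay between these pairs at 12.4 ± 1.14. The low end was STIM2 at 2.97 ± 0.265, ITPR1 at 1.94 ± 0.273 and ATP2A3, the pump of blood and secretory cells, at 0.0609 ± 0.019 CPM per kilobase. At 1000 µM, STIM2 reached 5.34 ± 0.671 and ITPR1 5.19 ± 0.191, level with each other, while ORAI3 had dropped to 4.61 ± 0.332 CPM per kilobase.

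**Figure D1:**
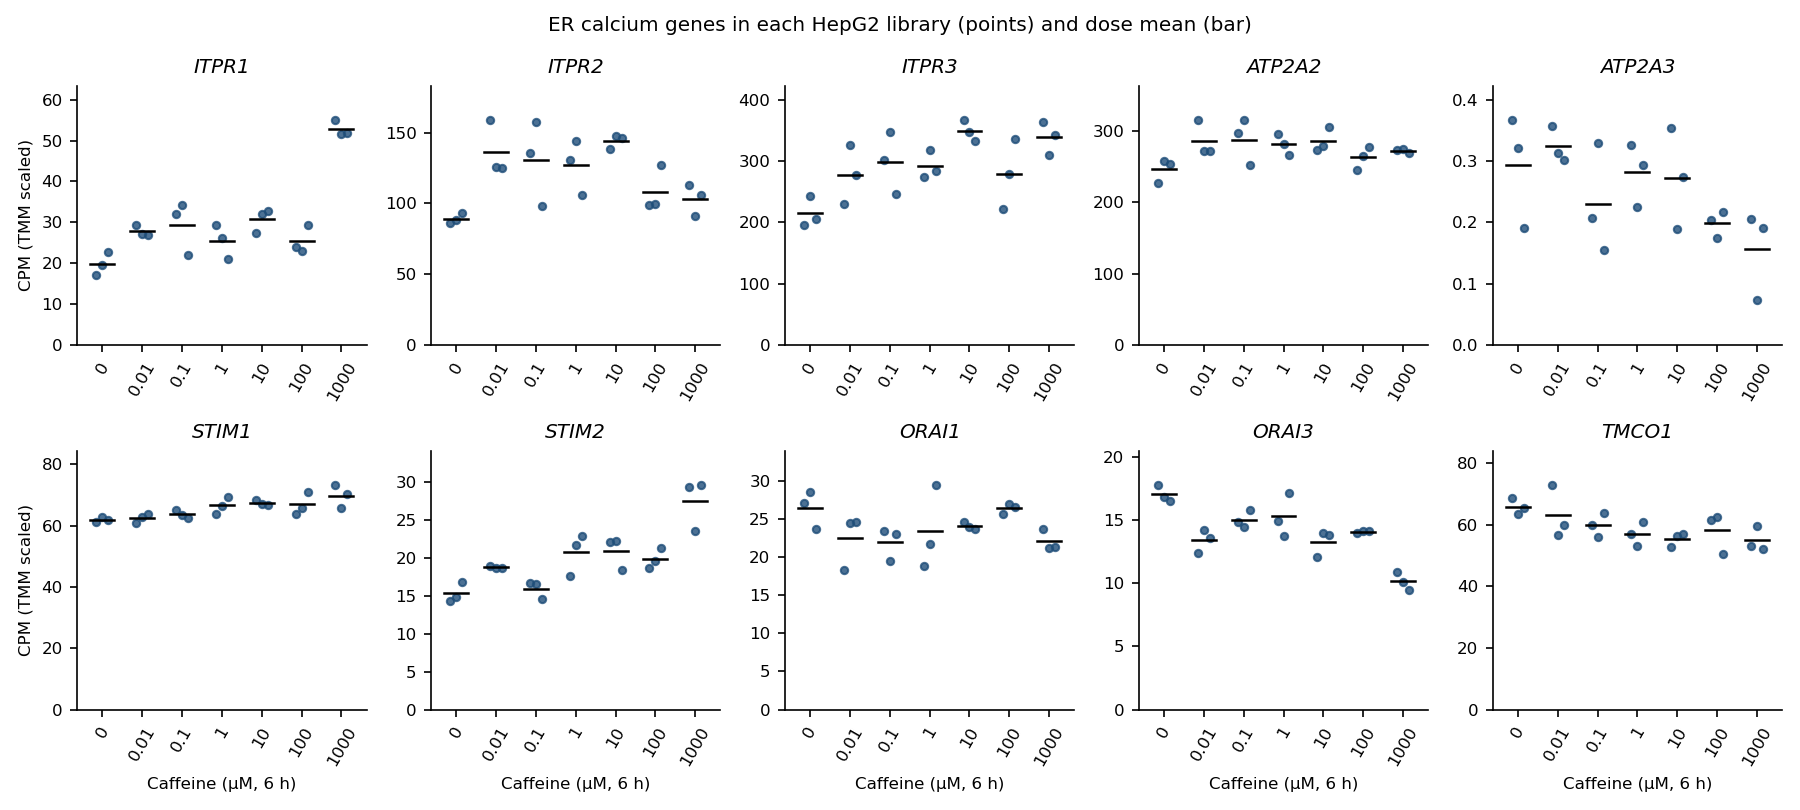
Normalised level of each of the 10 genes (vertical axes, CPM on a linear scale) at each caffeine dose (horizontal axis, µM, 6 h), with 1 point per library and a bar at the mean of 3 libraries. The 3 libraries at 1000 µM lie above all others for ITPR1 and STIM2 and below all others for ORAI3.

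At 1000 µM against 0 µM, the largest rise among the members was in ITPR1 and the largest fall that passed the test was in ORAI3, with STIM2 and ITPR3 also higher. Of the 10 members, 6 passed an adjusted p of 0.05 (edgeR's quasi-likelihood test, adjusted by Benjamini and Hochberg over all 17468 features), 4 higher and 2 lower. This dose moved much of the transcriptome: 41.2% of all features passed the same test, 20.6% higher and 20.6% lower. The groups did not overlap for 8 of the 10 members, against 53.2% of all features. The median log2 fold change over the members was 0.16, beside -0.03 over all features tested.

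Setting 1000 µM against the 12 libraries at 0.01 to 10 µM uses none of the untreated libraries. In that comparison 4 of the 10 members passed, ITPR1 and STIM2 higher and ORAI3 and ITPR2 lower, beside 30.7% of all features (16.3% higher and 14.4% lower). The 3 libraries at 1000 µM lay outside the range of the 12 for ITPR1, STIM2 and ORAI3, and for 15.6% of all features. The median log2 fold change was -0.06 over the members and -0.02 over all features. The 1000 µM libraries enter both comparisons, so these are not independent.

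**Figure D2:**
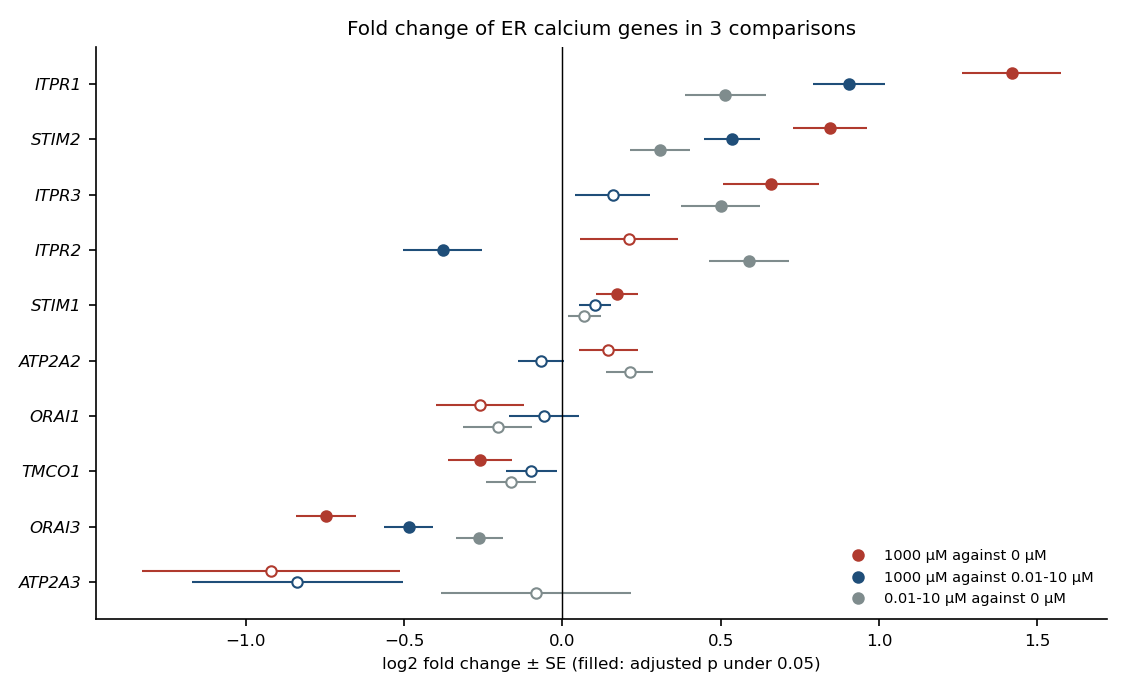
Log2 fold change ± standard error (horizontal axis) of each member (vertical axis) in 3 comparisons: 0.01-10 µM against 0 µM, 1000 µM against 0 µM and 1000 µM against 0.01-10 µM, with filled points for an adjusted p under 0.05. ITPR1 is the member farthest to the right in both comparisons of 1000 µM, at 1.42 and 0.90.

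ITPR1 (ENSG00000150995.19, GRCh38 chr3:4493345-4847840, plus strand) encodes the IP3 receptor best known from neurons, which hepatocytes also carry. Its levels at 0 µM were 17.1, 19.6 and 22.7 CPM. Across the 12 libraries at 0.01 to 10 µM the lowest was 20.9, the median 28.3 and the highest 34.2 CPM, and the 100 µM libraries held 24.0, 22.8 and 29.4. At 1000 µM the levels were 55.1, 51.7 and 51.9 CPM. These 3 libraries stood above all 18 others with a wide gap, and the 100 µM libraries lay inside the range of the lower doses. The rise over 0 µM was 1.42 ± 0.16 on the log2 scale (standard error, as for all fold changes) with an adjusted p of 2.9e-06 by edgeR's quasi-likelihood test. Against the 12 low-dose libraries it was 0.90 ± 0.11 with an adjusted p of 9.7e-06 by the same test.

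ITPR2 (ENSG00000123104.12, chr12:26336515-26833198, minus strand), the main IP3 receptor of hepatocytes, had another shape over dose. At 0 µM it stood at 86.1, 88.5 and 93.3 CPM. At 0.01 to 10 µM the lowest library was 98.2, the median 137 and the highest 159 CPM. At 1000 µM the values were 113, 91.2 and 106 CPM. All 12 low-dose libraries were above the 3 untreated ones, and of the 1000 µM libraries replicate 2 lay among the untreated and the other two among the low doses. ITPR2 was 0.59 ± 0.13 higher on the log2 scale at 0.01 to 10 µM than at 0 µM (adjusted p = 0.00743, edgeR's quasi-likelihood test) and fell by 0.38 ± 0.13 from there to 1000 µM (adjusted p = 0.0281). Without 1000 µM replicate 2 the adjusted p of that fall was 0.178, and without replicate 3 it was 0.0881. The 1000 µM against 0 µM difference was 0.21 ± 0.15, with an adjusted p of 0.289.

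ITPR3 (ENSG00000096433.11, chr6:33620365-33696574, plus strand), the IP3 receptor of bile duct and other secretory epithelia, was the most abundant of the family here. It measured 196, 243 and 205 CPM at 0 µM. At 0.01 to 10 µM the lowest library was 229, the median 310 and the highest 367 CPM, and at 1000 µM the values were 364, 310 and 342. The 1000 µM libraries were above all 3 untreated ones but inside the range of the lower doses. Its rise over 0 µM was 0.66 ± 0.15 on the log2 scale (adjusted p = 0.00235, edgeR's quasi-likelihood test), whereas against the low doses the difference was 0.16 ± 0.12 (adjusted p = 0.337). In the annotation 10.4% of the exon bases of ITPR3 lie opposite UQCC2, which had a median of 800 counts, and the strand setting of the counting is not known, so some reads may belong to either gene.

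The make-up of the IP3 receptor family therefore differed at the top dose. The log2 ratio of ITPR1 to ITPR2 counts was -2.25 ± 0.12 (SD, n = 12) at 0.01 to 10 µM and -0.96 ± 0.12 (n = 3) at 1000 µM. The ITPR1 to ITPR3 ratio went from -3.43 ± 0.23 to -2.68 ± 0.08, and ITPR2 to ITPR3 from -1.18 ± 0.24 to -1.71 ± 0.04. In each of the 3 ratios the 1000 µM libraries lay outside the range of the 12 low-dose and the 3 untreated libraries. An exact two-sided permutation test over the 455 ways of placing 3 libraries among 15 gave p = 0.0044 for each, the smallest it can give. Scaled by transcript length, ITPR1 made up 6.17% ± 0.841 of the family at 0 µM, 6.25% ± 0.699 at 100 µM and 10.7% ± 0.595 at 1000 µM. ITPR2 made up 25.0% ± 2.01 at 0 µM and 18.6% ± 0.56 at 1000 µM, and ITPR3 68.9% ± 2.64 and 70.7% ± 0.036.

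Of the 3 ryanodine receptors, the channels that caffeine opens in muscle, RYR1 had 0 to 2 counts and RYR2 0 to 1 count in any library, too few to test. RYR3 had 4 to 22 counts, or 0.131 to 0.643 CPM, and its 1000 µM against 0 µM difference was -0.29 on the log2 scale with an adjusted p of 0.641 by edgeR's quasi-likelihood test.

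Neither pump gene among the members passed the test at 1000 µM. ATP2A2 (ENSG00000174437.17, chr12:110280756-110351093, plus strand), which encodes the pump found in nearly all cells, stood at 227, 259 and 255 CPM at 0 µM. At 0.01 to 10 µM its lowest library was 252, the median 281 and the highest 316 CPM, and at 1000 µM it measured 273, 275 and 270. The 1000 µM libraries lay just above the untreated ones and within the low-dose range. The log2 difference from 0 µM was 0.15 ± 0.09 at 1000 µM (adjusted p = 0.218, edgeR's quasi-likelihood test) and 0.21 ± 0.07 at 0.01 to 10 µM (adjusted p = 0.0538). With a correction for GC content and transcript length, the 1000 µM value turned to -0.11 ± 0.06 (adjusted p = 0.212). ATP2A3 (ENSG00000074370.18, chr17:3923870-3964464, minus strand) had 3 to 12 counts per library. Its log2 difference of -0.92 ± 0.41 at 1000 µM (adjusted p = 0.0786, edgeR's quasi-likelihood test) rests on 3 to 7 counts there against 6 to 11 at 0 µM. The muscle pump gene ATP2A1, which overlaps RABEP2 on the other strand, was at 8.20 ± 1.26 CPM at 0 µM and 7.06 ± 0.441 at 1000 µM (adjusted p = 0.241 in the same test).

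Of the 2 sensors, STIM2, which responds to small drops of store calcium, moved the more. STIM2 (ENSG00000109689.16, chr4:26857678-27025381, plus strand) measured 14.2, 14.8 and 16.8 CPM at 0 µM. Its lowest low-dose library was 14.6, the median 18.6 and the highest 22.9 CPM, and the 100 µM libraries held 18.7, 19.5 and 21.2. At 1000 µM the levels were 29.4, 23.5 and 29.6 CPM. All 3 lay above the 18 other libraries, replicate 2 only narrowly so. The rise was 0.85 ± 0.12 on the log2 scale over 0 µM (adjusted p = 3.0e-05, edgeR's quasi-likelihood test) and 0.54 ± 0.09 over the low doses (adjusted p = 0.00016).

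STIM1 (ENSG00000167323.11, chr11:3854527-4093210, plus strand), the sensor that drives most store-operated entry, moved less. It held 61.1, 62.8 and 61.9 CPM at 0 µM and 73.4, 65.6 and 70.3 CPM at 1000 µM. The groups did not overlap, and the rise of 0.17 ± 0.07 on the log2 scale had an adjusted p of 0.0435 by edgeR's quasi-likelihood test. That call was kept in 1 of the 6 fits that left out 1 of these libraries, the one without 1000 µM replicate 2, and in the others the adjusted p lay between 0.0579 and 0.115. Against the low doses STIM1 differed by 0.10 ± 0.05 (adjusted p = 0.142). The log2 ratio of STIM1 to STIM2 fell from 1.78 ± 0.17 (SD, n = 12) at the low doses to 1.35 ± 0.12 (n = 3) at 1000 µM, with no overlap and p = 0.0044 in the exact two-sided permutation test. STIM2 made up 17.3% ± 1.25 of the length-scaled pair at 0 µM and 24.9% ± 1.55 at 1000 µM.

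Of the Orai channel genes, ORAI3 was lower at 1000 µM. ORAI3 (ENSG00000175938.7, chr16:30949066-30956461, plus strand), a subunit of store-operated and arachidonate-activated channels found in mammals, measured 17.8, 16.8 and 16.6 CPM at 0 µM. At 0.01 to 10 µM the lowest library was 12.1, the median 14.1 and the highest 17.2 CPM, and the 100 µM libraries held 14.0, 14.1 and 14.2. At 1000 µM the levels were 10.9, 10.1 and 9.45 CPM. These were the 3 lowest of the 21 libraries. The log2 difference was -0.75 ± 0.10 from 0 µM (adjusted p = 1.4e-05, edgeR's quasi-likelihood test) and -0.49 ± 0.08 from the low doses (adjusted p = 0.00012). In the annotation 52.9% of the exon bases of ORAI3 are shared with AC135048.1 on the same strand, a transcript with at most 25 counts in any library, so the split of reads between these genes is uncertain.

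ORAI1 (ENSG00000276045.3, chr12:121626550-121642677, plus strand) forms the pore of the classical store-operated channel. It stood at 27.1, 28.5 and 23.8 CPM at 0 µM and at 23.7, 21.2 and 21.4 CPM at 1000 µM, with 18.4 to 29.5 CPM across the low doses. The log2 difference of -0.26 ± 0.14 from 0 µM had an adjusted p of 0.142 by edgeR's quasi-likelihood test, and with the same correction for GC content and transcript length it turned to 0.19 ± 0.08 (adjusted p = 0.0796). The log2 ratio of ORAI1 to ORAI3 was 0.68 ± 0.19 (SD, n = 12) at the low doses and 1.12 ± 0.06 (n = 3) at 1000 µM, where all 3 libraries were above the 12 (p = 0.0044, exact two-sided permutation test). ORAI2, the remaining paralog, was at 16.4 ± 0.913 CPM at 0 µM and 14.2 ± 0.883 at 1000 µM (adjusted p = 0.105, edgeR's quasi-likelihood test).

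**Figure D3:**
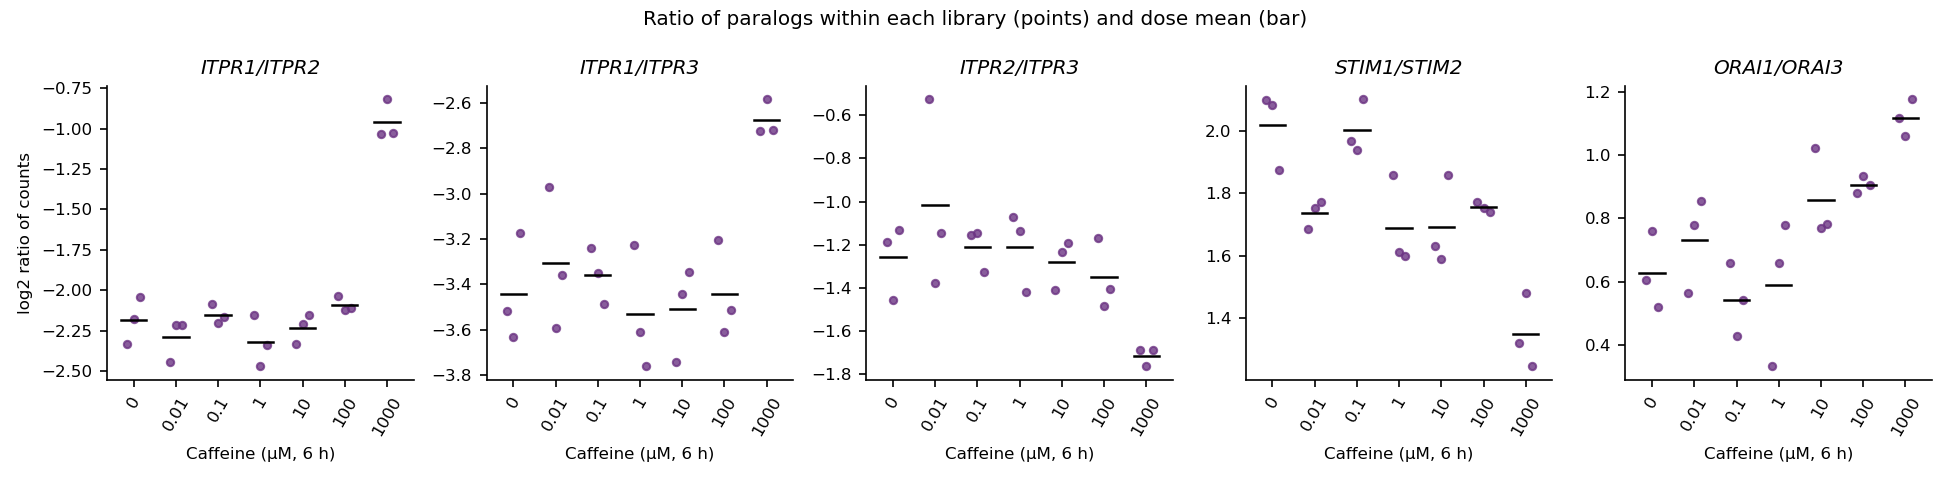
Log2 ratio of the counts of 2 paralogs within each library (vertical axes) by caffeine dose (horizontal axes, µM, 6 h), with 1 point per library and a bar at the mean of 3. In all 5 pairs shown the 1000 µM libraries lie outside the range of the libraries at 0 to 10 µM, with ITPR1/ITPR2 at -0.96 against -2.25 on average at the low doses.

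All 5 ratios tested between paralogs among the members thus lay outside the low-dose range at 1000 µM. Their p-values in the exact permutation test, adjusted over the 5, were 0.0044 each. The 5 are not independent, since all use the same 3 libraries at 1000 µM and the IP3 receptor ratios share genes. ITPR1, STIM2 or ORAI3, each outside that range alone, enters every ratio but ITPR2/ITPR3. As single genes 15.6% of all features lay outside it, and ratios of other gene pairs were not formed. The pump pair was left out because ATP2A3 averaged under 10 counts, and ratios with ATP2A1 or ORAI2 were not formed. A ratio within a library shows unequal change of 2 genes and not which of them changed.

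TMCO1 (ENSG00000143183.16, chr1:165724293-165827755, minus strand), the leak channel, measured 68.8, 63.6 and 65.3 CPM at 0 µM and 53.0, 59.7 and 52.2 CPM at 1000 µM. The groups did not overlap, and the log2 difference was -0.26 ± 0.10 with an adjusted p of 0.0477 by edgeR's quasi-likelihood test. The call was kept in 1 of the 6 fits without 1 of these libraries, the one without 1000 µM replicate 2, and in the others the adjusted p lay between 0.0685 and 0.179. From the low doses TMCO1 differed by -0.10 ± 0.08 (adjusted p = 0.387). In the annotation 4.03% of the exon bases of TMCO1 lie opposite UCK2, which had a median of 2157 counts. The strand setting of the counting is not known, so some reads may belong to either gene.

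The lower doses each shared the untreated libraries as their reference. At 10 µM 5 of the 10 members passed edgeR's test, beside 22.0% of all features: ITPR1 at 0.64, ITPR2 at 0.69, ITPR3 at 0.71 and STIM2 at 0.45 were higher on the log2 scale and ORAI3 at -0.36 was lower. Without 0 µM replicate 1 only ITPR2 and ITPR3 remained, beside 7.07% of all features, and without 10 µM replicate 1 it was the 3 IP3 receptors, beside 8.03%. At 0.01 µM 2 passed beside 4.95% of all features, ITPR2 at 0.61 and ORAI3 at -0.35, and leaving out 1 library left 0 or 1 of them. In edgeR's test no member passed at 0.1 or at 1 µM, where 0% of all features did; 4 members had an unadjusted p under 0.05 at each of these doses, beside 15.2% and 22.8% of all features, and DESeq2 called 3 of the 9 members it adjusted at each, beside 3.49% and 10.7%. At 100 µM no member passed edgeR's test beside 6.02% of all features, 4 had an unadjusted p under 0.05 beside 25.6%, and DESeq2 called 2 of 9, STIM2 and ORAI3, beside 15.1%. Against the 12 low-dose libraries the 100 µM libraries overlapped in all 10 members, whereas 1.75% of all features did not; edgeR called 0 of them beside 0.447% of all features, 1 had an unadjusted p under 0.05 beside 9.38%, and DESeq2 called 0 beside 1.25%.

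Taking the 12 libraries at 0.01 to 10 µM together against 0 µM, 5 of 10 members passed edgeR's test beside 18.2% of all features. ITPR1 was 0.51 ± 0.13 higher on the log2 scale (adjusted p = 0.0122), ITPR2 0.59 ± 0.13 (adjusted p = 0.00743), ITPR3 0.50 ± 0.12 (adjusted p = 0.0129) and STIM2 0.31 ± 0.09 (adjusted p = 0.0321), while ORAI3 was at -0.26 ± 0.07 (adjusted p = 0.0218). Only for ITPR2 did the 12 libraries not overlap the 3 untreated ones, as for 6.19% of all features. This comparison leans on the 3 untreated libraries: without 0 µM replicate 1 it called 0 members and 0.0561% of all features, and without 0 µM replicate 2 it called ITPR3 alone among the members and 3.13% of all features.

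A property of the libraries moved with these values. For each library, the median deviation of the 479 genes whose longest transcript is in the top 5% by length was taken against that of all other well-expressed genes, on the log2 scale. This index was -0.35 to -0.26 in the 3 untreated libraries, the 3 lowest of all 21, and 0.06 to 0.26 at 1000 µM. The doses between ran from -0.19 to 0.23. The transcripts of ITPR1, ITPR2 and ITPR3 are 10197, 11405 and 9870 bases long and belong to that class, whereas ORAI1 and ORAI3 have 2138 and 2206 bases. Over the 21 libraries, which were made with the same protocol, the correlation of the member's log2 level with the index was 0.79 for ITPR1, 0.75 for ITPR2, 0.79 for ITPR3 and 0.79 for ATP2A2, and -0.73 for ORAI3, -0.63 for ORAI1 and -0.59 for TMCO1. For STIM2 it was 0.62 and for STIM1 0.48.

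The fits were therefore repeated with each library's trend on GC content and transcript length removed, a correction chosen after the data were seen. The index differed with dose, so the correction can remove a dose response of long transcripts along with a library trend. Which of these it removed was not tested. At 0.01 to 10 µM against 0 µM the values of ITPR1, ITPR2 and ITPR3 dropped to 0.21, 0.26 and 0.26 on the log2 scale, and only ITPR2 and ITPR3 still passed edgeR's test (adjusted p = 0.0281 and 0.0300), beside 11.9% of all features. ORAI3 came to -0.08 (adjusted p = 0.44) and STIM2 to 0.19 (adjusted p = 0.22). At 1000 µM against 0 µM, ITPR1 was 0.99 ± 0.10 higher, STIM2 0.59 ± 0.13 and ITPR3 0.43 ± 0.09, and ORAI3 was at -0.37 ± 0.08, all still past the threshold. ITPR2 turned from 0.21 to -0.31 ± 0.09 (adjusted p = 0.0125), and TMCO1 went from -0.26 to -0.56 ± 0.12 (adjusted p = 0.00102).

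Against the low doses, where no untreated library enters, the corrected values were 0.78 ± 0.08 for ITPR1, 0.40 ± 0.10 for STIM2, -0.29 ± 0.07 for ORAI3 and -0.57 ± 0.07 for ITPR2. All 4 calls held under edgeR's test, and 4 more members passed, beside 32.8% of all features in this fit: TMCO1 at -0.32, ORAI1 at 0.19, ATP2A2 at -0.17 and STIM1 at 0.13.

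**Figure D4:**
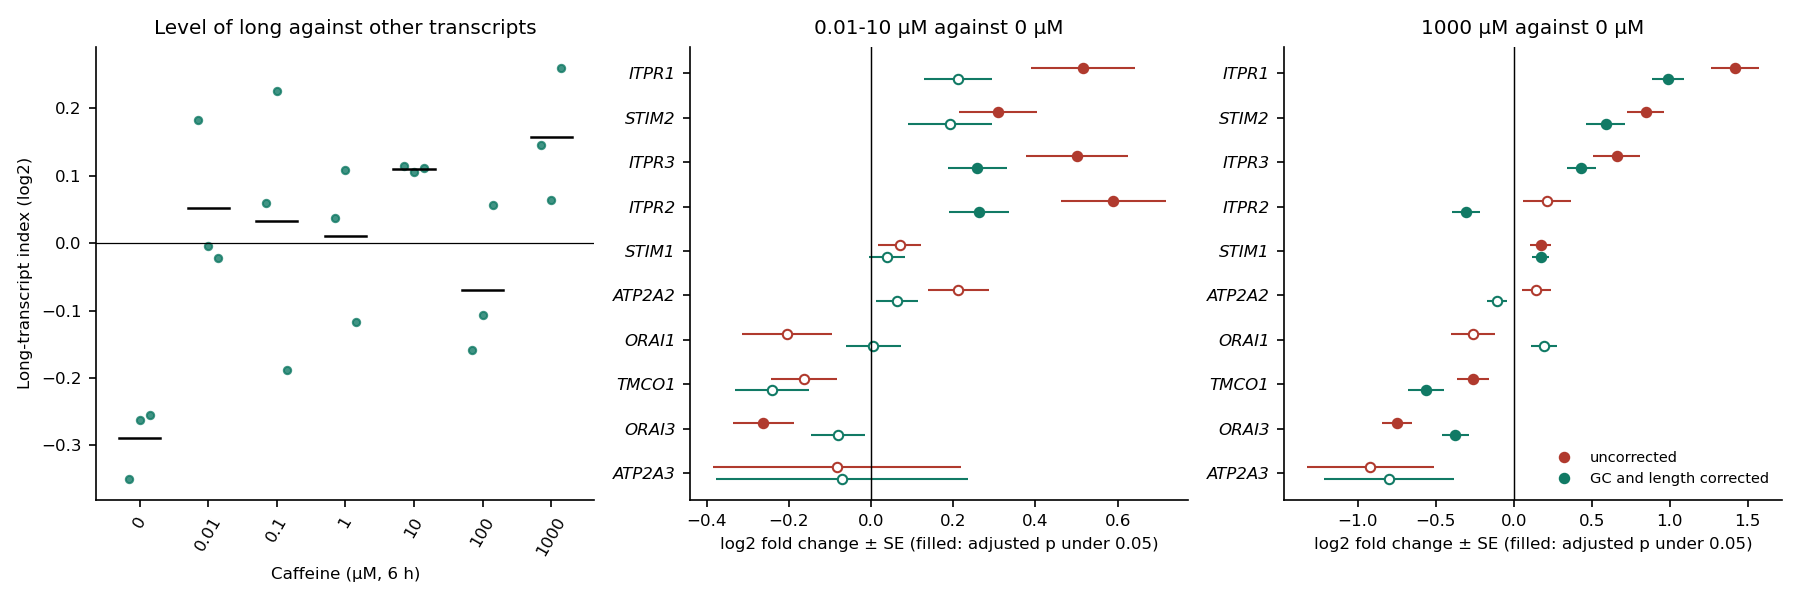
The first panel gives the long-transcript index (vertical axis, log2) of each library by caffeine dose (horizontal axis, µM), with a bar at the mean of 3; the others give the log2 fold change ± standard error of each member in 2 comparisons, without and with the correction for GC content and transcript length (filled points: adjusted p under 0.05). The 3 untreated libraries lie lowest on the index, and the correction moves the 3 IP3 receptors to the left in both comparisons.

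Over the whole series, 5 members differed among the 7 doses in edgeR's test, beside 28.1% of all features: ITPR1, STIM2, ORAI3, ITPR2 (adjusted p = 0.018) and ITPR3 (adjusted p = 0.028). A straight line per dose step, in which 0 µM and each next dose are 1 step apart, passed for 6 members beside 29.0% of all features. Its slopes on the log2 scale per step were 0.16 for ITPR1, 0.11 for STIM2, 0.08 for ITPR3 and 0.03 for STIM1, and -0.08 for ORAI3 and -0.04 for TMCO1. Without the 1000 µM libraries both tests called 0 members, beside 0.918% of all features among doses and 6.06% for the slope. In each, 5 members had an unadjusted p under 0.05, beside 23.5% of all features among doses and 26.5% for the slope.

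The genes whose log2 level followed ITPR1 most closely over the 21 libraries, among 9573 compared, were CEMIP2 (Pearson r = 0.984), SORL1 (0.982) and SNX30 (0.974). For STIM2 they were WAC (0.969), KLF10 (0.961) and GOLIM4 (0.956). The points share the high values of the 3 libraries at 1000 µM. Correlations within doses were taken after each dose's mean was removed. Among all pairs of members the highest within doses were ITPR1 with ITPR2 (r = 0.837) and ITPR1 with ATP2A2 (r = 0.825). With the dose means left in, r over the 21 libraries was 0.267 and 0.473 for these pairs. The lowest within doses was ITPR3 with TMCO1 (r = -0.842). Pairs of other genes were not compared within doses.

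Beside the members, 83 other genes of ER calcium handling were listed by role, and 66 of them were tested. At 1000 µM against 0 µM 26 of the 66 passed edgeR's test, 13 higher and 13 lower. This was 39.4% of them, about the 41.2% of all features, and the median log2 fold change was -0.11 beside -0.03 over all features. Against the low doses 20 passed, 7 higher and 13 lower, which was 30.3% beside 30.7% of all features.

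The counts by role that follow are to be read against the same 41.2% of all features. These counts and the fold changes are without the correction for GC content and transcript length. Corrected values were not taken for these genes. The 0 µM libraries had the lowest values of the long-transcript index, and its part in these values was not tested. Among enzymes that make the ligand of the IP3 receptors, 3 of 7 phospholipase C genes passed, with PLCB1 at 0.70 and PLCG1 at 0.35 higher and PLCD1 at -0.41 lower. Of 8 tested partners of the receptors, AHCYL1, a protein that competes with the ligand, was at 0.25, BOK, which binds and stabilises the receptors, at -0.28, and IRAG1, which links them to cGMP-dependent kinase, at -1.47 from only 3 to 15 counts. Of 6 tested modifiers of store-operated entry, the ER-plasma membrane tether ESYT2 rose by 0.26 and CRACR2B, a regulator of Orai channels, fell by 0.76. The plasma membrane pump ATP2B1 was 0.43 higher, the only 1 of 5 pumps and exchangers to pass. All of these values are log2 fold changes at 1000 µM against 0 µM that passed edgeR's quasi-likelihood test. At 1000 µM against 0.01 to 10 µM, 1 phospholipase C gene, 2 partners, 1 modifier and 1 pump or exchanger passed, all lower. In that comparison 30.7% of all features passed. None of the rises named in this paragraph passed there.

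Other ER proteins with a described leak function gave 4 of 7 calls in edgeR's quasi-likelihood test at 1000 µM against 0 µM, 2 higher and 2 lower. Among them, on the log2 scale, PKD2, an ER and cilium channel, was at 0.45, the translocon subunit SEC61A1 at -0.30 and GRINA, a TMBIM family protein, at -0.26.

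In the lumen of the ER 3 of 9 calcium-binding proteins passed, beside 41.2% of all features, CALU at 0.51 and the chaperone CANX at 0.28 higher and the chaperone HSPA5 at -0.34 lower. Of 6 genes of the ER stress response, 5 passed edgeR's test, 4 of them lower: SDF2L1 at -1.85, DDIT3 at -0.59, XBP1 at -0.55 and HERPUD1 at -0.53, while the transcription factor gene ATF4 was 0.68 higher. The median of these 6 was -0.54 beside -0.03 over all features. Downstream of store-operated entry, 3 of 7 genes of calcineurin and NFAT passed, NFATC3 at 0.43 and PPP3CC at 0.37 higher and RCAN1, a calcineurin-responsive gene, at -0.33. Of 7 genes of the mitochondrial uniporter, the pore gene MCU was at 0.31 and its small subunit SMDT1 at -0.98. At 1000 µM against 0.01 to 10 µM, 3 leak genes, 3 luminal, 5 ER stress and 4 calcineurin and NFAT genes passed, beside 30.7% of all features. Of the uniporter genes 0 passed there.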

How the data were processed

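RNA of 21 HepG2 samples was collected with Trizol, captured on poly(dT) beads and reverse transcribed, per the labels' protocols. The authors deposited 1 table of raw read counts per gene. The submitters' processing notes name HISAT2, DESeq2 and GRCh38; the counting program, annotation and strand setting are not given in the sources used here. Of the per-sample columns, 21 were mapped to samples by name and 21 were not used here. One line of the series' text names coumarin for the control group; the sample labels say caffeine at 0 µM and were followed. The replicates are called biological, but nothing says that they came from separate days, so p-values measure the spread between these samples.

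Symbols were matched to Ensembl identifiers (32255 matched), and positions and lengths come from GENCODE 29. Features passing edgeR's filter (minimum count 10) were TMM-scaled and fitted with 7 dose groups (14 residual degrees of freedom) in edgeR 4.0.16 (R 4.3.3) by its quasi-likelihood test, with Benjamini-Hochberg adjustment over all 17468 features at 0.05. Of these, 1617 had no Ensembl identifier. Standard errors of edgeR's fold changes were taken as the absolute log2 fold change over the square root of the test's F value. CPM are counts per 1000000 of the TMM-scaled total. Paralog ratios are log2 ratios of counts with 0.5 added. Pathway genes are named where they passed at 1000 µM against 0 µM, at most 4 a list by p-value; DDIT3 was added after its values were seen. RYR genes, ATP2A1 and ORAI2 are always named, and likeness was sought for the 2 members with the smallest p among doses, over genes averaging at least 10 CPM. The values of 1 listed gene are not reported here. The members and lists were chosen with earlier results of these data known. Alternatives were size factors, filters, DESeq2 1.42.0, a replicate block and leaving out libraries. Replicate pairs of 1 dose differed by 5.08 to 186 times the sampling noise (chi-square per gene), so no library duplicated another of its dose. Libraries of different doses were not compared in this way. The fits were tested on simulated data.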

Additional observations from a re-analysis of the deposited data

How the results depend on the processing

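At 1000 µM against 0 µM, ITPR1, STIM2, ORAI3 and ITPR3 passed in all 6 fits without 1 of the compared libraries. Leaving out 1 library called 4 to 6 members there, beside 28.8% to 38.6% of all features. The other counts of members called on leaving out 1 library follow, with the share of all features called in brackets. Against 0 µM they were 0 to 1 at 0.01 µM (0% to 6.05%) and 0 to 3 at 0.1 µM (0% to 4.85%). At 1 µM they were 0 to 1 (0% to 7.09%). At 10 µM they were 2 to 5 (7.07% to 20.8%) and at 100 µM 0 to 1 (0.146% to 6.36%). Against 0.01-10 µM they were 3 to 4 for 1000 µM (17% to 36.2%) and 0 to 0 for 100 µM (0.0785% to 0.624%). For 0.01-10 µM against 0 µM they were 0 to 6 (0.0561% to 22.3%). Among doses they were 3 to 5 (17.2% to 35%) and for the slope 4 to 7 (19.5% to 35.8%). The ratios kept 5.

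At an adjusted p under 0.01 the counts were 0 at 0.01 µM, 3 at 10 µM and 1 for 0.01-10 µM. The shares of all features were 0%, 7.18% and 4.69%. Among doses 3 members passed and for the slope 3, beside 13.7% and 15.1% of all features. With no filter on low counts the counts were 1 at 0.01 µM and 3 for 0.01-10 µM, beside 2.16% and 6.93%. Fits of only the groups compared gave 0 at 0.01 µM and 2 at 100 µM, beside 0.0124% and 24.7%. A mitochondrial covariate gave 0 at 0.01 µM and 1 at 100 µM, beside 0.00572% and 8.01%. DESeq2 called 3 at 0.1 µM, 3 for 1 µM and 2 at 100 µM, beside 3.49%, 10.7% and 15.1%. The GC and length correction was, like the covariate, added after the data were seen. With it the counts were 0 at 0.01 µM, 2 at 10 µM and 2 for 0.01-10 µM, beside 0.063%, 19.4% and 11.9%. For 1000 µM against 0.01-10 µM the count was 8, beside 32.8% of all features. Without the 1000 µM group no member passed among doses (0) or for the slope (0), beside 0.918% and 6.06% of all features. Without the 0 µM group 3 and 2 did, beside 12.8% and 11.5%. The cause was not tested.

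Replicate numbers were not taken to pair the libraries: 11 of 63 same-number pairs correlated over 0.1 (range -0.437 to 0.249). Pairs of unlike number were not compared, so this does not exclude pairing. With the replicate block the counts were 0 at 0.01 µM, 5 at 10 µM, 4 at 1000 µM, 4 for 1000 µM against 0.01-10 µM and 5 for 0.01-10 µM against 0 µM. In the same order, the shares of all features were 0%, 18.9%, 39.3%, 28.4% and 14.6%.

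Direction changed in members that had not passed uncorrected. With the GC and length correction these were ITPR2 (from 0.21 to -0.31) and ATP2A2 (-0.11) at 1000 µM against 0 µM, ORAI1 from -0.26 to 0.19 there and 0.19 against 0.01-10 µM, and the slopes of ATP2A2 (-0.0184) and ORAI1 (0.0331). The slope of ITPR2 was 0.000619 with RLE size factors, 0.00495 with no filter, 0.00063 with the replicate block, 0.0427 without the 1000 µM group and 0.00128 in DESeq2, and -0.019 to 0.0164 on leaving out 1 library. The slope of ATP2A2 was -2.1e-05 per µM on linear dose, -0.0208 without the 0 µM group and -0.00443 to 0.012 on leaving out 1 library. The slope of ORAI1 was 0.00958 without the 1000 µM group, 0.0214 without the 0 µM group and -0.0156 to 0.00411 on leaving out 1 library.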
